A study of Mus musculus with 19 samples.

Results

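Genes for the uptake, storage and sensing of iron were followed in liver Kupffer cells (KCs) of embryonic origin (em-KCs) and in the monocyte-derived KCs (mo-KCs) that replace them after depletion. The members are a list of 9 genes: Tfrc, Steap3, Slc11a1, Slc11a2, Fth1, Ftl1, Ncoa4, Aco1 and Ireb2. Of these, 8 had a probeset with that gene as its single symbol, among 19938 such genes in all. Where a gene had several, the one with the highest mean represents it. Slc11a1, which encodes a divalent metal transporter of the phagosome membrane, had none and is not analysed here.

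The data are 19 Mouse Gene ST arrays from Affymetrix, 1 per sample, of KCs sorted as Clec4F+ cells from livers of mice aged 6 to 12 weeks. KC-DTR mice carry the human diphtheria toxin (DT) receptor and a yellow fluorescent protein in the Clec4f gene, so that DT removes their Clec4F+ cells. The 11 em-KC arrays were 3 of untreated KC-DTR mice, 1 of an untreated littermate without the cassette, 2 of such littermates at day 15 and 2 at day 30 after DT, and 3 of WT mice labelled apart from the littermates. The mo-KC arrays were 3 of KC-DTR mice at day 15 and 5 at day 30 after DT. The dose was 50 ng for these mice and for the treated littermates. Mo-KCs therefore carry the cassette and received DT together, which no em-KC group does. For these arrays the origin of mo-KCs rests on the label and the depletion, not on a lineage mark. In separate experiments the authors traced that origin with shielded bone marrow chimeras and with transferred Ly6C-high monocytes. Arrays within a group are labelled as biological replicates, without naming the animals.

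KCs clear aged red cells and recycle their iron, and they also take up iron bound to transferrin. In that route the transferrin receptor carries iron into endosomes, a ferrireductase reduces it and a metal transporter passes it to the cytosol, where ferritin stores it until Ncoa4 takes ferritin to the lysosome. The iron regulatory proteins bind iron-responsive elements when iron is scarce, which stabilizes Tfrc mRNA and blocks ferritin translation, so that the mRNA levels measured here are not protein levels.

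Levels are given on the log2 scale of the deposited values, where a difference of 1 is a doubling. A gene was called when its limma p-value, adjusted by Benjamini-Hochberg over all 19938 genes, was under 0.05. Among 13 measured KC markers, limma called 4 lower and 0 higher in day 30 mo-KCs, and 3 lower and 0 higher at day 15. The mean of Timd4 was 8.16 in day 15 mo-KCs and 9.62 in day 30 mo-KCs, while em-KCs had 11.90. Vsig4 was between 12.71 and 13.03 on every array, and Clec4f, the marker of the sort, between 12.17 and 12.67 in em-KCs, 12.16 and 12.21 at day 15, and 10.66 and 12.29 at day 30. On 6 arrays, the 3 of WT em-KCs and day 30 replicates 3 to 5, Xist lay above the Y-linked Eif2s3y, and on the other 13 below it. The labels give neither sex nor array batch per sample. The same 6 arrays had a lower mean level of 15 immediate-early genes, 7.77 to 8.29 against 9.19 to 10.18. The 3 WT arrays had a higher mean level of 17 measured hepatocyte markers, 9.28 to 9.60 against 7.67 to 8.44 in the other em-KCs. Against all em-KCs, 15 of these 17 markers had a negative difference in day 30 mo-KCs (median -0.50) and 16 of 17 at day 15 (median -0.60), and 1 and 0 of them were called lower. The 1 called was Trf, which is also among the other iron genes described below. In such bulk samples more cells of a type and more RNA per cell cannot be told apart.

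None of the 8 genes was called between mo-KCs and em-KCs at either day. At day 30, limma called 0 of 8, against 0.787% of all genes, with 1 of 8 at an unadjusted p under 0.05, against 13% of all genes. At day 15 it called 0 of 8, against 0.502% of all genes, with 1 of 8 at an unadjusted p under 0.05, against 6.05%. The methods' t-test after adjustment also called 0 at both days. The median difference of the 8 genes was -0.13 at day 30 and -0.04 at day 15, beside -0.02 and -0.01 over all genes. Both comparisons use the same em-KC arrays.

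Over the pooled arrays, the intervals bounded the size of any difference. The 95% confidence interval lay within 1.5-fold for 8 of 8 genes at day 30 and for 8 of 8 at day 15. That is no property of iron genes, since 91.1% of all genes met it at day 30 and 87.8% at day 15. It did not hold within the 6 arrays alone, where the day 30 intervals were -1.08 to -0.06 for Tfrc and -0.86 to -0.05 for Steap3.

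**Figure D1:**
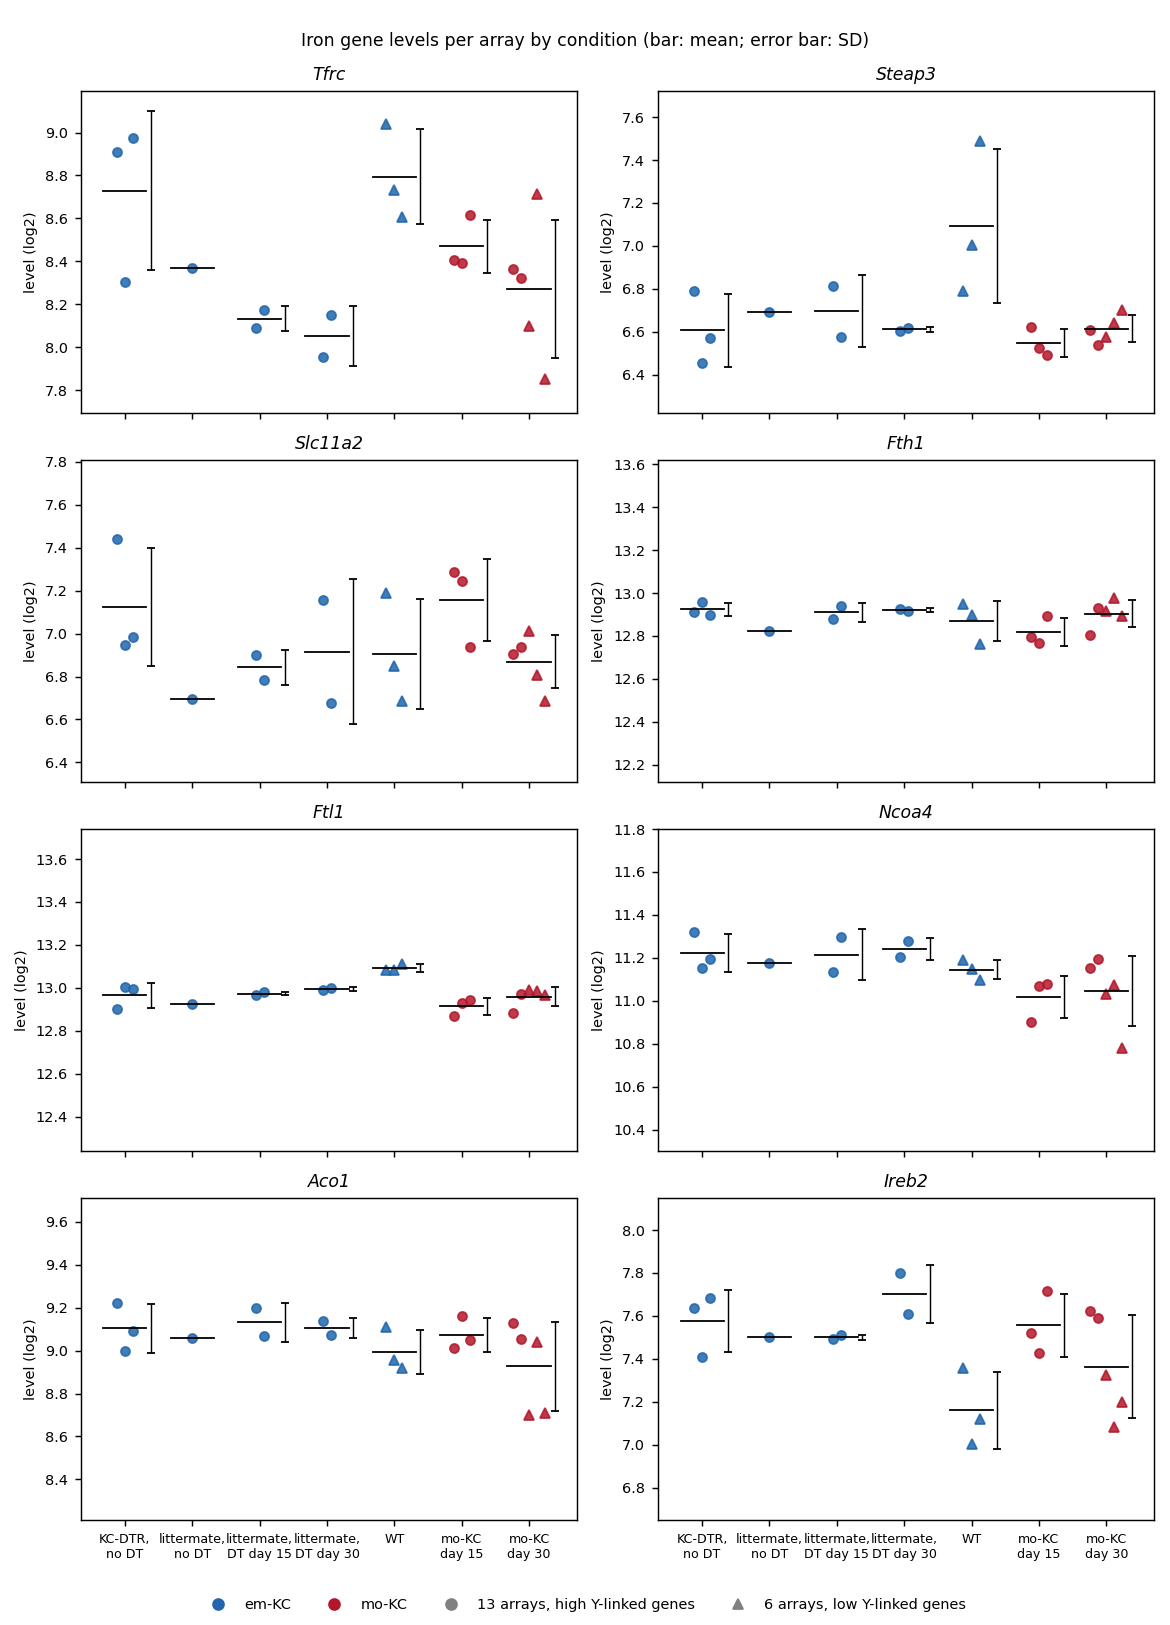
Level (log2) of 8 iron genes on each of 19 arrays by condition, em-KCs in blue and mo-KCs in red, with every panel spanning 1.5 log2 units; horizontal bars are means, error bars SD where a condition has more than 1 array, and triangles mark the 6 arrays with low Y-linked genes. Fth1 and Ftl1 barely vary, the WT em-KCs stand high for Steap3, and the triangles of both cell types lie low for Ireb2.

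Uptake begins with Tfrc, the transferrin receptor. It was the most variable of the 8 genes, with an SD of 0.34 over the 19 arrays, and 90.7% of all genes had a smaller SD. In em-KCs Tfrc ranged from 7.95 to 9.04 with a median of 8.37. Day 15 mo-KCs had 8.41, 8.39 and 8.61, and day 30 mo-KCs 8.37, 8.32, 8.10, 8.71 and 7.85. All the day 15 values lay inside the em-KC range, and only the lowest day 30 value lay below it. The difference from em-KCs was -0.21 at day 30 (95% confidence interval -0.57 to 0.15, adjusted p = 0.654 from limma) and -0.01 at day 15 (-0.44 to 0.42, adjusted p = 0.998).

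Most of the spread of Tfrc was among em-KCs. Untreated KC-DTR em-KCs had 8.91, 8.30 and 8.97, and WT em-KCs 9.04, 8.73 and 8.61. The 5 littermate arrays were lower, at 8.37 for the untreated mouse, 8.09 and 8.17 at day 15 and 7.95 and 8.15 at day 30. Only the lowest KC-DTR array, replicate 2, fell within the littermate range. In the order of the 7 condition means, from WT to littermates at day 30, neighbouring ranges overlapped except those of day 15 mo-KCs and the 1 untreated littermate. For the other genes they overlapped too, apart from Ftl1 between WT and littermates at day 30 and between littermates at day 30 and day 15, and Slc11a2 between littermates at day 15 and the untreated one.

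Steap3, the endosomal ferrireductase, stood out by a single condition. WT em-KCs had 6.79, 7.01 and 7.49. The other em-KCs ran from 6.46 to 6.81. At day 15 the mo-KCs had 6.62, 6.53 and 6.49, and day 30 mo-KCs 6.61, 6.54, 6.58, 6.64 and 6.70. Every mo-KC array thus lay within the range of the non-WT em-KCs. Against all em-KCs the difference was -0.15 at day 30 (95% confidence interval -0.40 to 0.09) and -0.22 at day 15 (-0.51 to 0.08), with adjusted p of 0.636 and 0.92 from limma.

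Slc11a2, also named DMT1, moves ferrous iron from the endosome to the cytosol. Its em-KC levels ranged from 6.68 to 7.44 with a median of 6.90. Day 15 mo-KCs had 7.29, 7.25 and 6.94, and day 30 mo-KCs 6.90, 6.94, 7.01, 6.81 and 6.69. All 8 mo-KC arrays lay within the em-KC range, with 2 of the day 15 arrays in its upper part. The difference from em-KCs was 0.22 at day 15 (95% confidence interval -0.06 to 0.50) and -0.07 at day 30 (-0.30 to 0.16). Between day 30 and day 15 it was -0.29 (-0.60 to 0.03, adjusted p = 0.92 from limma). In that comparison limma called 0 of 8 genes, against 0.0201% of all genes, with 0 of 8 at an unadjusted p under 0.05, against 5.08%. The methods' t-test before adjustment gave 1 of 8, Slc11a2, against 3.92% of all genes.

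The ferritin genes were the steadiest. Fth1, the heavy chain with ferroxidase activity, lay between 12.76 and 12.96 in em-KCs (median 12.91). The day 15 arrays had 12.80, 12.77 and 12.89, and day 30 mo-KCs 12.80, 12.93, 12.92, 12.98 and 12.89. The groups overlapped almost fully. The SD over 19 arrays was 0.064, and 0.13% of all genes had a smaller one. The difference at day 30 was 0.01 (95% confidence interval -0.11 to 0.12), and at day 15 -0.08 (-0.22 to 0.06).

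Ftl1, the light chain that favours mineral formation in the ferritin core, lay between 12.90 and 13.11 in em-KCs (median 12.99). Day 15 mo-KCs had 12.87, 12.93 and 12.94, and day 30 mo-KCs 12.88, 12.97, 12.99, 12.99 and 12.97. Except for 1 array at each day, the mo-KC values lay within the em-KC range. The SD over 19 arrays was 0.065, with 0.14% of genes smaller, and the difference was -0.04 at day 30 (95% confidence interval -0.16 to 0.07) and -0.09 at day 15 (-0.23 to 0.05). A further 4 probesets list Ftl1 beside other symbols and were not used. Ferritin genes have near-identical copies, so their probes may be shared, and the highest value in the table was 14.4. Whether bright signals were compressed was not tested.

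Ncoa4, the receptor that delivers ferritin to autophagy, had the smallest unadjusted p of the 8 genes at both days. In em-KCs it ranged from 11.10 to 11.32 with a median of 11.19. Mo-KCs at day 15 had 10.90, 11.07 and 11.08, and day 30 mo-KCs 11.15, 11.19, 11.03, 11.07 and 10.78. All 3 day 15 arrays lay below every em-KC array, as did 3 of the 5 day 30 arrays. Of the 8 genes, Ncoa4 alone did not overlap with em-KCs at day 15, and 1.81% of all genes did not. At day 30 none of the 8 was free of overlap, against 0.552% of all genes.

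The Ncoa4 difference did not pass the test. It was -0.18 at day 15 (95% confidence interval -0.35 to -0.01, adjusted p = 0.773 from limma) and -0.15 at day 30 (-0.30 to -0.01, adjusted p = 0.347). A second single-gene Ncoa4 probeset differed by -0.18 and -0.14. Within the 13 arrays the day 15 difference was -0.20 (adjusted p = 0.298 from limma) and that of the 2 day 30 arrays -0.05 (adjusted p = 0.972). Among the 6 arrays it was -0.18 at day 30 (adjusted p = 0.448).

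**Figure D2:**
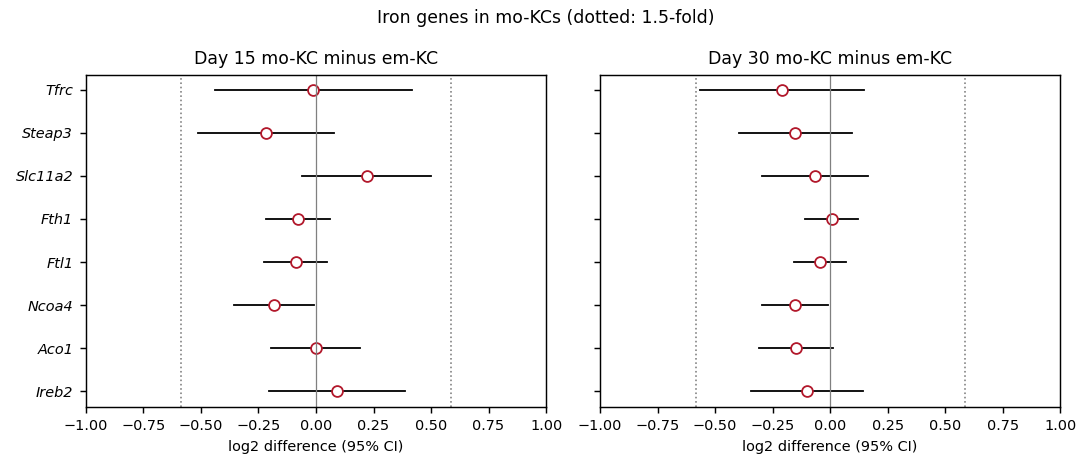
Log2 difference of 8 iron genes between mo-KCs and em-KCs at day 15 (left) and day 30 (right); circles are limma estimates, lines 95% confidence intervals and dotted lines 1.5-fold, and open circles mark an adjusted p of 0.05 or more. All 16 intervals lie inside the dotted lines, and those of Ncoa4 end just below 0 at both days.

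Aco1 and Ireb2 encode the sensors, the iron regulatory proteins IRP1, which doubles as a cytosolic aconitase, and IRP2, which is broken down when iron is plentiful. Aco1 ranged from 8.92 to 9.22 in em-KCs (median 9.07). Mo-KCs had 9.01, 9.16 and 9.05 at day 15, and day 30 mo-KCs 9.13, 9.05, 8.70, 9.04 and 8.71. Day 30 replicates 3 and 5 lay below every other array. The difference was -0.15 at day 30 (95% confidence interval -0.31 to 0.01, adjusted p = 0.426 from limma) and -0.0015 at day 15 (-0.20 to 0.19).

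Ireb2 was lower on the 6 arrays than on the 13 in em-KCs and in day 30 mo-KCs. In the 13 arrays its em-KC levels ran from 7.41 to 7.80, the day 15 mo-KCs had 7.52, 7.43 and 7.72, and day 30 replicates 1 and 2 had 7.62 and 7.59. In the 6 arrays WT em-KCs had 7.36, 7.001 and 7.12, and day 30 replicates 3 to 5 had 7.32, 7.08 and 7.20. No array of the smaller set reached the lowest of the larger. Over all arrays the mo-KC difference was -0.10 at day 30 (95% confidence interval -0.35 to 0.14) and 0.09 at day 15 (-0.20 to 0.39). At day 30 it was 0.03 within the 13 arrays and 0.04 within the 6, opposite in sign to the pooled value. In em-KCs the sets are the WT arrays and the KC-DTR colony, whose comparison follows. In day 30 mo-KCs the difference between the sets was not tested.

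Tfrc and Steap3 were also compared within each array set at day 30. Within the 13 arrays their mo-KC differences were -0.02 and -0.07. Within the 6 arrays Tfrc differed by -0.57 (95% confidence interval -1.08 to -0.06, adjusted p = 0.187 from limma) and Steap3 by -0.45 (-0.86 to -0.05, adjusted p = 0.192), where the em-KCs were the WT arrays only, so that set and mouse source cannot be told apart. A test of the day 30 difference between the sets gave -0.55 for Tfrc (adjusted p = 0.392 from limma) and -0.39 for Steap3 (adjusted p = 0.259). Without day 30 replicate 4 or 5 the Tfrc value was -0.80 or -0.37, and without WT replicate 3 that of Steap3 was -0.19. That test called 0 of 8 genes with limma, against 4.72% of all genes, with 1 of 8 at an unadjusted p under 0.05, against 19.1%.

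Among em-KCs, 2 iron genes were called between WT mice and the KC-DTR colony, that is, the KC-DTR mice and their littermates. Steap3 was higher in WT em-KCs by 0.44 (SE 0.12, 95% confidence interval 0.19 to 0.70, adjusted p = 0.0181 from limma), or 1.36-fold. Ireb2 was lower, with a difference of -0.41 (SE 0.12, -0.67 to -0.15, adjusted p = 0.0307). These 2 of 8 stand beside 16.5% of all genes called, so that the count is little above the background. By range, 2 of 8 genes did not overlap, Ireb2 lower and Ftl1 higher in WT, against 17.7% of all genes.

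Each call was lost when certain single arrays were left out. Without WT replicate 3, which had the Steap3 value of 7.49, the Steap3 difference was 0.245 (adjusted p = 0.149 from limma). That of Ireb2 was -0.39 (adjusted p = 0.0934). Limma then called 0 of 8 genes, against 2341 of all 19938. With that array left out, Steap3, Ireb2 and Tfrc, 3 of 8, were at an unadjusted p under 0.05. In the full fit 3 of 8 were too, against 31.5% of all genes. The Ireb2 call was also lost without WT replicate 2 (-0.33, adjusted p = 0.138), littermate day 15 replicate 2 (-0.41, 0.0503) or littermate day 30 replicate 1 (-0.39, 0.0586). WT em-KCs are all among the 6 arrays and carry the higher hepatocyte marker level, where 14 of 17 markers were called higher and the median difference was 1.66. Mouse source, array set and hepatocyte transcripts cannot be told apart in this comparison. The colony side also mixes untreated KC-DTR mice with littermates, most of them given DT.

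Tfrc was 0.47 higher in WT than in colony em-KCs (SE 0.17, 95% confidence interval 0.12 to 0.82), just short of the threshold with an adjusted p of 0.0593 from limma. It passed without day 30 mo-KC replicate 4 or replicate 5 (adjusted p = 0.037 and 0.0377), arrays that enter only through the shared estimate of spread. By condition, the Tfrc mean was 8.79 in WT and 8.73 in untreated KC-DTR em-KCs. In littermates it was 8.37 untreated, 8.13 at day 15 and 8.05 at day 30 after DT. Ftl1 was 13.08, 13.08 and 13.11 in WT em-KCs and at most 13.01 in the others, a difference of 0.13 (-0.02 to 0.28, adjusted p = 0.227). Slc11a2, Fth1, Aco1 and Ncoa4 differed by 0.01, -0.02, -0.11 and -0.07, each with an interval within 1.5-fold.

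**Figure D3:**
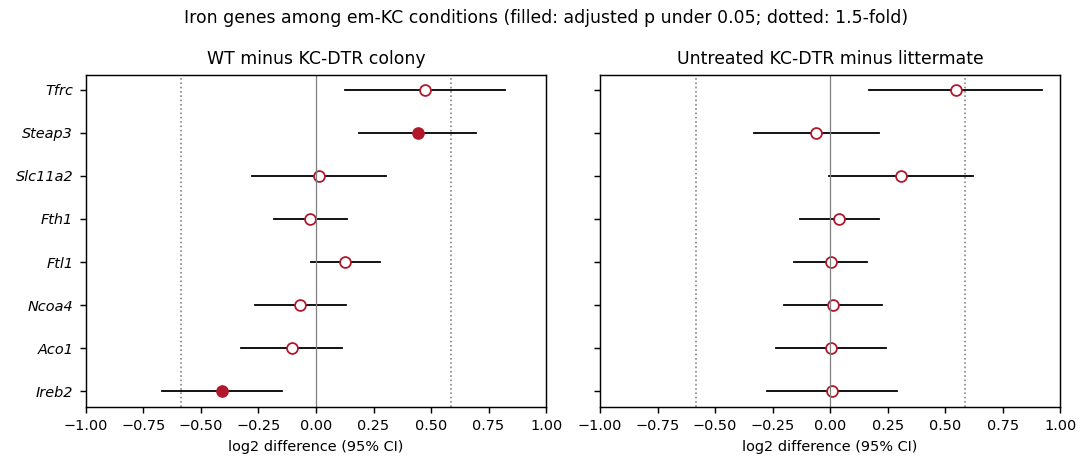
Log2 difference of 8 iron genes among em-KCs, WT minus the KC-DTR colony (left) and untreated KC-DTR minus littermates, 4 of 5 of them given DT (right); circles are limma estimates, filled at an adjusted p under 0.05, lines are 95% confidence intervals and dotted lines 1.5-fold. Steap3 and Ireb2 are filled on the left with opposite signs, and no gene is filled on the right, where the Tfrc interval of 0.17 to 0.92 lies above 0.

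Untreated KC-DTR em-KCs were compared with the mean of the 3 littermate conditions. Of the 5 littermate arrays, 4 came from mice given DT, so that the knock-in and DT are mixed in this comparison. Tfrc had the largest difference of the 8 genes, 0.54 (SE 0.18, 95% confidence interval 0.17 to 0.92), with an unadjusted p of 0.007 and an adjusted p of 1 from limma. Against the untreated littermate alone the Tfrc mean was 0.36 higher, and KC-DTR replicate 2 lay below that littermate. Slc11a2 followed with 0.31 (-0.01 to 0.62), and was 0.43 above the untreated littermate, and the other 6 lay between -0.06 and 0.04. Limma called 0 of 8 genes and 0% of all genes, with 1 of 8 and 756 of all genes (3.79%) at an unadjusted p under 0.05.

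DT itself was compared in littermates, with 4 treated arrays and a single untreated one that is assumed to vary like the other conditions. The differences of the 8 genes ran from -0.28 for Tfrc to 0.18 for Slc11a2, and neither interval lay within 1.5-fold. Limma called 0 of 8, with 0 at an unadjusted p under 0.05, and 0% of all genes, with 441 at an unadjusted p under 0.05. A test for any difference among the 7 conditions called 0 of 8 with limma, against 5.64% of all genes. Tfrc (adjusted p = 0.136 from limma) and Steap3 (adjusted p = 0.162) were the 2 at an unadjusted p under 0.05, against 19.3% of all genes. Without untreated KC-DTR replicate 2, the low Tfrc array of its group, that test called 1 of 8, Tfrc, against 4.85% of all genes.

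The gene closest in pattern to each of the 8 was found by Pearson's r over the 19 arrays, which share groups, array sets and normalization. Ireb2 was closest to Kpnb1, with r = 0.94, and 0.60 within the 13 arrays and 0.94 within the 6. Steap3 followed Slc6a13 with r = 0.93, and 0.71 within the 13 arrays and 0.998 within the 6, which hold the 3 WT arrays. Aco1 was closest to Cnnm2 (r = 0.91) and Ncoa4 to Ephx1 (r = 0.90). For Ncoa4 the value within the 13 arrays was as high, 0.91. The 13 and the 6 arrays are part of the 19 used to pick each gene, so values within them are no separate check. Ftl1 was closest to C1qc (r = 0.88), a complement gene of KCs. The lowest maxima were those of Tfrc with E030011O05Rik (0.81), Fth1 with Trnt1 (0.74) and Slc11a2 with B4galt1 (0.70).

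Other genes of iron handling gave the surroundings of the 8. Of 39 listed symbols, 34 were measured. At day 30, limma called 2 lower and 0 higher in mo-KCs, against 0.787% of all genes. At an unadjusted p under 0.05 there were 6, against 13% of all genes, and the median difference was -0.04. At day 15 it called 1 lower and 0 higher, against 0.502% of all genes. There were 5 at an unadjusted p under 0.05, against 6.05% of all genes, and the median was -0.05.

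Slc22a17, a receptor for the iron carrier lipocalin 2, was lower in mo-KCs than in em-KCs at both days. It ranged from 6.78 to 7.30 in em-KCs (median 7.01), while the 3 day 15 arrays spanned 6.17 to 6.49 and the 5 day 30 arrays 6.45 to 6.52, without overlap with em-KCs. The difference was -0.73 at day 15 (SE 0.10, adjusted p = 2.09e-04 from limma) and -0.54 at day 30 (SE 0.08, adjusted p = 9.57e-04). Within the 13 arrays, with 2 of the day 30 arrays, the day 30 value was -0.46 (adjusted p = 0.0618 from limma). Within the 6 arrays the mean was 6.46 in day 30 mo-KCs and 7.20 in WT em-KCs, and the call held.

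Trf, the gene of transferrin and also 1 of the hepatocyte markers, was 11.84 ± 0.11 in em-KCs (SD, n = 11), 11.58 ± 0.07 at day 15 (SD, n = 3) and 11.35 ± 0.24 at day 30 (SD, n = 5). It was lower at day 30 than in em-KCs, with a difference of -0.50 (SE 0.09, adjusted p = 0.00331 from limma). Trf sits at the median of the 17 hepatocyte markers, so their median of -0.50 is its own value. The part of hepatocyte transcripts in the Trf difference was not tested. Within the 13 arrays, with 2 of the day 30 arrays, that difference was -0.23 (adjusted p = 0.597 from limma). Within the 6 arrays Trf averaged 11.19 in day 30 mo-KCs and 11.92 in WT em-KCs, and the call held. The test of the day 30 difference between the array sets gave -0.50 (adjusted p = 0.039 from limma). Slc40a1, the iron exporter ferroportin, did not pass, with differences of -0.20 at day 30 (adjusted p = 0.183 from limma) and -0.19 at day 15 (adjusted p = 0.707).

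**Figure D4:**
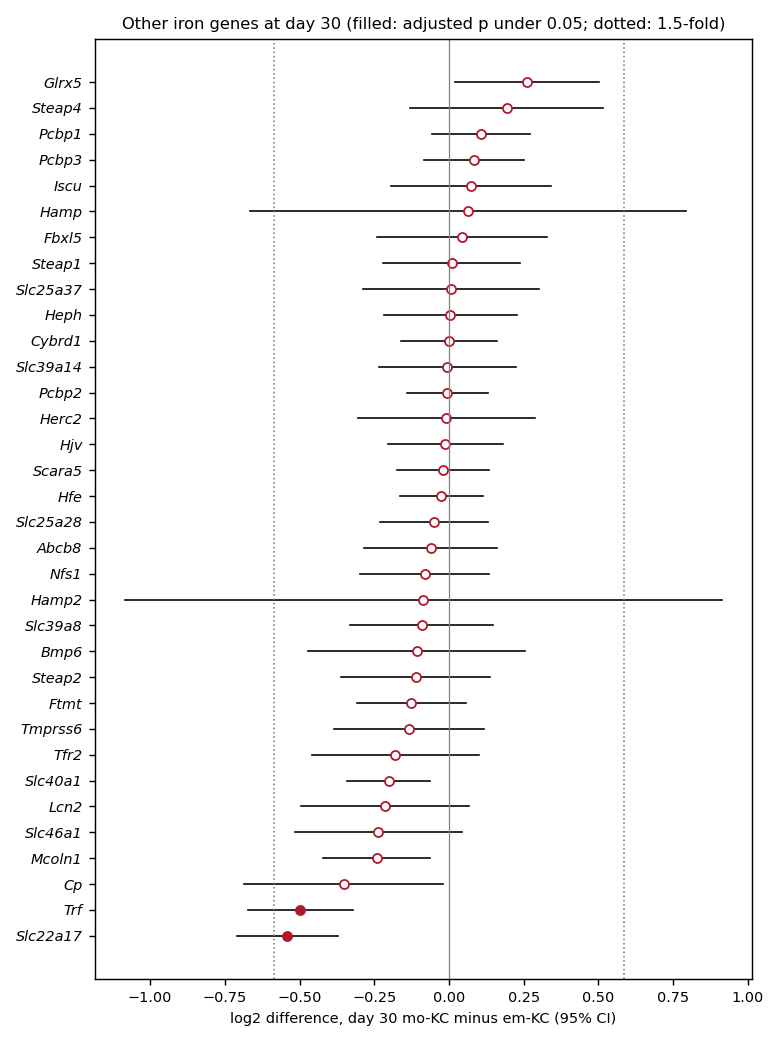
Log2 difference between day 30 mo-KCs and em-KCs for 34 other genes of iron handling, sorted by size; circles are limma estimates, filled at an adjusted p under 0.05, lines are 95% confidence intervals and dotted lines 1.5-fold. Slc22a17 and Trf at the bottom are the only filled circles, and both lost the call within the 13 arrays.

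Between WT and colony em-KCs, 6 of the 34 were higher and 2 lower, beside 1366 higher and 1923 lower among all 19938 genes. The lower ones were Herc2 (-0.49, adjusted p = 0.0364 from limma) and Pcbp1 (-0.32, adjusted p = 0.0109), and these and the higher ones are named after their values were seen. The higher ones were Hamp2 (2.51), Hamp (1.51), Cp (0.67), Tfr2 (0.64), Lcn2 (0.60) and Tmprss6 (0.51), with adjusted p from 2.65e-05 to 0.00486 from limma. Hamp encodes hepcidin, and Hamp, Cp, Tfr2 and Tmprss6 are known chiefly from hepatocytes. Their part in the differences of Steap3, Ireb2 and Tfrc was not tested.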

How the data were processed

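The authors deposited log2 expression per probeset of 19 Mouse Gene ST arrays, made by Robust Multi-array Average (RMA) with background correction and quantile normalization; the sources used here name no software version or genome build. Values ran from 1.71 to 14.4. Of 35556 probesets, 21789 had 1 gene symbol in the platform annotation, 1621 had several and 12146 had none, and only the first kind was used, with the highest-mean probeset per gene.

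Groups came from the sample labels. Limma 3.58.1 in R 4.3.3 (lmFit and eBayes, default settings, two-sided) fitted 3 groups for mo-KCs against em-KCs, 7 conditions for comparisons among em-KCs, and cell type by array set. Adjustment was by Benjamini-Hochberg across 19938 genes. The array sets were defined by Xist against Eif2s3y. If replicates share animals, the p-values measure technical spread. The number of arrays limits the precision. On simulated data with the day 30 group sizes, among 19938 genes, the fit called 73.1% of genes changed 1.5-fold and 97% of those changed 2-fold, and with those of day 15 59.7% and 91%.

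The genes, lists and tests were chosen with earlier results of these data known. Besides the 9 listed genes, the text names Slc40a1 and up to 8 other iron genes called in mo-KCs, the gene most like each member, and up to 3 markers per list. The iron genes named between WT and colony em-KCs fall outside this rule. Alternatives covered the probeset, a filter on dim genes, cyclic loess, the methods' t-test, the variance model, the choice of arrays, array set and replicate number as blocks, and leaving out each array. The marker lists without a separate result above are given as ranges of mean level over all arrays. These were sinusoidal endothelium 9.09 to 10.16, neutrophil 5.29 to 5.63, lymphocyte 5.40 to 6.11 and erythroid 4.93 to 5.25. The monocyte range was 6.26 to 7.25 and that of the cell cycle 6.60 to 7.77, both highest at day 15. Against em-KCs, limma called 2 of 7 monocyte markers higher at day 15 and 1 at day 30, and 0 lower. It called 1 of 11 lymphocyte markers lower at each day. The shares over all genes were 0.502% at day 15 and 0.787% at day 30.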

Additional observations from a re-analysis of the deposited data

Results flagged for a closer look

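Ftl1 in day 30 mo-KCs had 1 array apart from the rest. Replicate 1 was 12.88 and the other 4 were 12.97 to 12.99, so that the gap took 0.812 of the group's range. The 8 genes were each examined in this group of 5, and chance marks about 1 in 20 such groups. Its Fth1 value, 12.80, was also the lowest of the group.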

How the results depend on the processing

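Of 36 differences of named genes, recomputed 983 times in all under 30 alternatives, 920 kept their direction and their side of the threshold and 41 reversed. The counts of called genes at day 30, at day 15 and between the days stayed at 0, except with the methods' t-test before adjustment, which gave 1 at day 30 (Ncoa4), 2 at day 15 (Ftl1 and Ncoa4) and 1 between the days (Slc11a2), beside 11.9%, 6.27% and 3.92% of all genes. When each array was left out, the count between WT and colony em-KCs ran from 0 to 3 and that over the 7 conditions from 0 to 1. With all arrays, these comparisons called 16.5% and 5.64% of all genes. For all the following reversals, of values near 0 that no alternative called, the cause was not tested. At day 30, Ireb2 was 0.0342 with array set as a block, 0.0275 in the 13 arrays and 0.0414 in the 6, and Fth1 was -0.00304 with colony em-KCs only, -0.041 in the 13 arrays and -0.0113 to 0.0321 when each array was left out. At day 15, Tfrc was 0.105 with colony em-KCs only and in the 13 arrays, 0.0521 with array set as a block and -0.083 to 0.0443 when each array was left out; Ireb2 was -0.0234 under the first 2 of these and -0.0221 under the third, and Aco1 was -0.0458 to 0.0293 when each array was left out. Between WT and colony em-KCs, cyclic loess gave 0.00671 for Fth1, 0.0836 for Aco1 and 0.0486 for Ncoa4, and leaving out each array gave -0.129 to 0.123 for Slc11a2 and -0.0635 to 0.0284 for Fth1. With loess, Ireb2 was -0.28 (adjusted p = 0.0858 from limma) and Tfrc 0.66 (adjusted p = 0.0114), and Tfrc also passed among genes above the median level (adjusted p = 0.045).

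Whether replicate numbers pair the samples was not settled. Deviations of same-numbered arrays correlated at -0.12 to 0.15, with 5 of 36 pairs over 0.1, and differently numbered arrays were not compared. In the fit without a replicate block, limma called 0.787% of all genes in mo-KCs at day 30 and 0.502% at day 15. With the replicate block, it called 0 of the 8 iron genes in mo-KCs at either day. Slc11a2 was 0.0399, Fth1 -0.0145 and Ireb2 0.0611 at day 30, Aco1 was 0.0234 at day 15, Slc22a17 -0.53 (adjusted p = 0.0567) and Trf -0.41 (adjusted p = 0.154) at day 30, and Tfrc 0.48 (adjusted p = 0.0348) between WT and colony em-KCs. Signal over background was not examined, since the table holds no detection values.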
